A study of Homo sapiens with 96 samples.

Results

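The genes described here are 9 components of the 2 routes by which a cell starts its caspases. They are the death receptors FAS, TNFRSF10A and TNFRSF10B, the adaptor FADD, the initiator caspases CASP8 and CASP10, their inhibitor CFLAR, and APAF1 and CASP9 of the mitochondrial route. They were chosen by name, as all probe sets that the annotation of the HG-U133 Plus 2.0 array gives to 1 of these symbols alone, 40 of 54675 probe sets and 9 of 19775 genes. The 96 arrays come from 4 human B-cell lymphoma lines, 24 arrays each, taken after 4 h of culture with or without an antibody. REC1 and Z138 are lines of mantle cell lymphoma, and OciLy18 and SUDHL4 are lines of diffuse large B-cell lymphoma. Each line was treated with whole anti-IgM, the F(ab')2-fragment of anti-IgM, anti-IgG, the mouse anti-CD20 antibody LT20, the chimeric anti-CD20 antibody rituximab and a human IgG isotype antibody, and REC1 also with the F(ab')2-fragment of rituximab. Each group holds 3 arrays. The labels give 10 µg/ml for every antibody, whereas the study's methods state a lower dose for the anti-IgM fragment. Untreated cells of the same line, control arrays 1 to 3, are the reference, except that anti-IgG in SUDHL4, OciLy18 and Z138 is set against control arrays 4 to 6. All treatments set against the same control triplicate share its arrays. Each line is 1 culture model, and neither labels nor methods say whether the 3 arrays of a group come from separate cultures, so p-values measure only the spread between these arrays.

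Death receptors sit in the plasma membrane and, once bound by their ligands, assemble FADD and procaspase-8 or procaspase-10 into a complex in which the caspase activates itself. CFLAR, also called FLIP, resembles caspase-8 but lacks its protease activity, and its presence in the complex limits caspase activation. In the mitochondrial route, cytochrome c released into the cytosol lets APAF1 oligomerize into the apoptosome, which activates caspase-9. In B cells, FAS takes part in the removal of activated cells, and crosslinking of the antigen receptor or of CD20 can lead to cell death or to survival.

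The deposited signals of each array summed to 8528613 to 8530013, and the lowest correlation between arrays of 1 group was 0.973. A probe set was tested in a line if its mean exceeded a signal of 100 in at least 1 group, and was called changed in a comparison at an adjusted p below 0.05 (limma), a change above 2-fold and a mean above 100 in 1 of the 2 groups. Signals summed over 6 B cell markers lay between 4942 and 14564 in all lines. CCND1 and SOX11 summed to 2672 to 4338 in REC1 and 3209 to 4149 in Z138, and to at most 30 in OciLy18 and 25 in SUDHL4, whereas BCL6 and MME summed to 1543 to 2907 in OciLy18 and 2634 to 3986 in SUDHL4. Monocyte and NK cell markers stayed below a sum of 100 on every array. Control arrays 4 to 6 differed from control arrays 1 to 3 in 2.3% of the probe sets tested in SUDHL4, 0.873% in OciLy18 and 1.48% in Z138, with no call among the 9 genes.

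Of the 40 probe sets, 14 were tested in at least 1 line, 7 of them in all 4 lines, and 26 in none. FAS, the receptor of FAS ligand, and CASP10, the initiator caspase closest to CASP8, had no tested probe set. The highest group mean of FAS was 75.1, in OciLy18 with anti-IgG, and that of CASP10 was 41.5, in the untreated control arrays 4 to 6 of Z138. CFLAR has 14 probe sets, of which 3 were tested, and all 3 carry the suffix x_at, by which the manufacturer marks probe sets that may also match other transcripts. Over 25 comparisons of an antibody with untreated cells, 270 tests of a member probe set gave 30 calls, in 10 comparisons and 6 genes. The calls comprise 6 of TNFRSF10A, 2 of TNFRSF10B, 3 of CASP8, 6 of CFLAR, 9 of APAF1 and 4 of CASP9, and REC1 accounts for 23 of them. REC1 also had the widest response over all probe sets. The share called ran from 0.611% to 14.4% in its antibody comparisons and from 0% to 7.51% in those of the other lines. Of all 9118 genes tested, 28.9% were called in at least 1 antibody comparison.

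**Figure D1:**
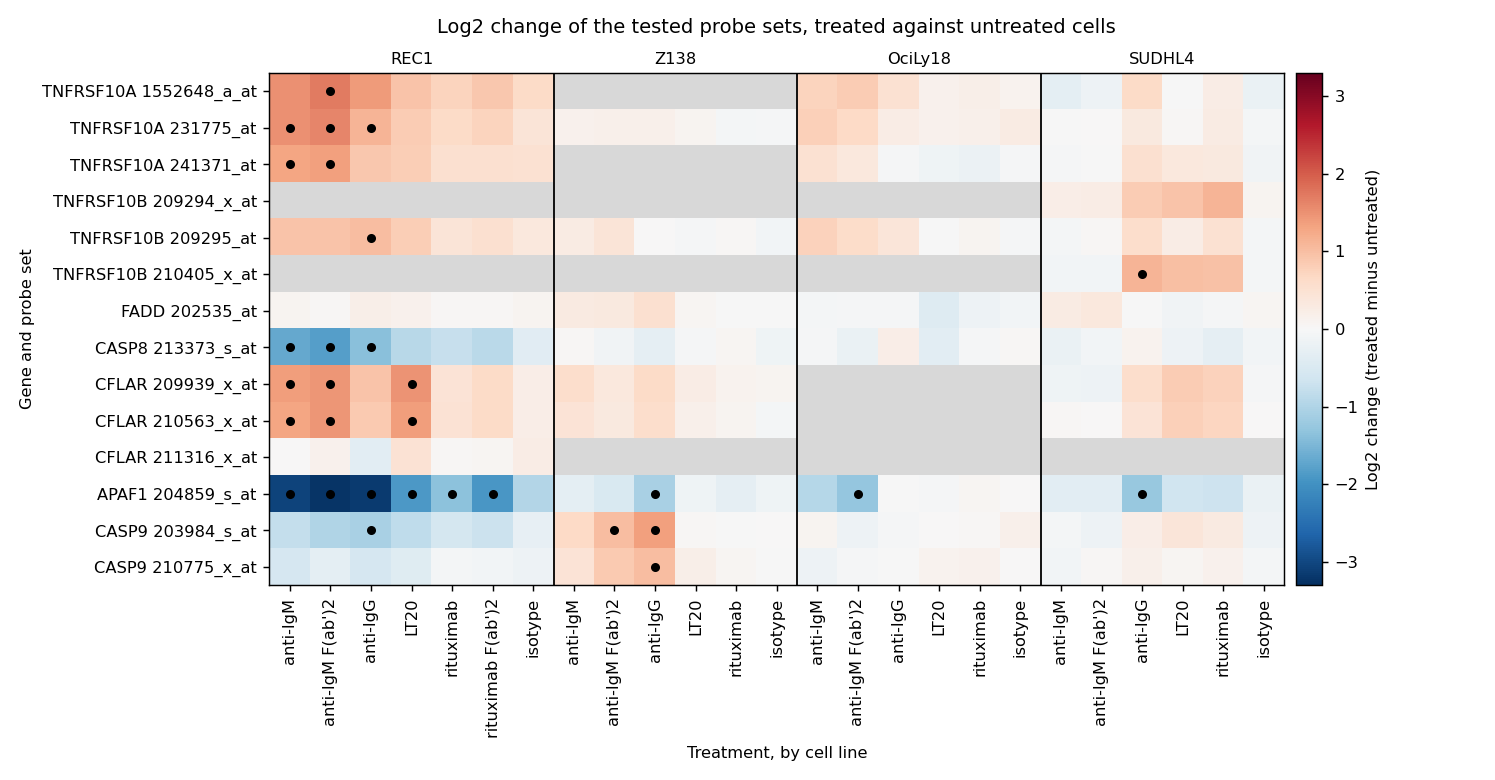
Log2 change (colour, treated minus untreated) of each tested probe set of 7 genes (rows) in each antibody comparison (columns), grouped by cell line; black dots mark calls and grey cells were not tested in that line. Most of the 30 dots lie in REC1, and the deepest blue cells, APAF1 with the 3 anti-immunoglobulin antibodies in REC1, reach -3.24.

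In REC1, all 3 antibodies against the antigen receptor raised the receptor TNFRSF10A and lowered CASP8 and APAF1. CFLAR, the inhibitor, was called higher with anti-IgM, its fragment and LT20, whereas TNFRSF10B was called higher and CASP9 lower with anti-IgG alone, the other two antibodies leaving them just under the fold limit of 2 or below it. In RNA of a whole culture, fewer cells of a type and less RNA per cell cannot be told apart. With anti-IgM 6 of 12 tested member probe sets were called, where 12% of all probe sets tested were. With its F(ab')2-fragment the members gave 7 calls against 14.4% of all probe sets, and with anti-IgG 5 against 10.6%. The median size of the log2 change over the 12 member probe sets was 1.3, 1.4 and 0.98 with the 3 antibodies, beside 0.35, 0.4 and 0.33 over all probe sets tested. The 12 probe sets belong to 7 genes, and the members were chosen with earlier results of these data known. The contrasts with all probe sets are therefore a description. With the anti-CD20 antibodies the members gave 3 calls with LT20 (5.12% of all probe sets), 1 with rituximab (1.59%) and 1 with its fragment (2.89%), and with the isotype antibody 0 (0.611%).

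TNFRSF10A and TNFRSF10B encode the 2 death-inducing receptors of the ligand TRAIL. TNFRSF10A 231775_at read 264, 247 and 213 on the REC1 arrays with anti-IgM, 238, 261 and 279 with its fragment and 188, 155 and 213 with anti-IgG, against 91.8, 67.9 and 95.8 on the untreated arrays. All 9 treated arrays lay above the 3 untreated ones. The increases were 2.85-fold, 3.07-fold and 2.18-fold (limma adjusted p = 3.96e-09, 1.04e-09 and 4.79e-07). The probe set 241371_at of the same gene stood 2.45-fold (anti-IgM) and 2.56-fold (fragment) above untreated cells, and 1552648_a_at rose 3.3-fold with the fragment, which was called because its mean of 107 passed the signal limit. With LT20, rituximab and the rituximab fragment TNFRSF10A 231775_at was 1.81-fold, 1.56-fold and 1.66-fold higher than in untreated REC1 cells (adjusted p = 3.87e-05, 0.00166 and 0.000324), short of 2-fold. Among the TNFRSF10A probe sets only 241371_at passed the test with the isotype antibody, 1.42-fold higher (adjusted p = 0.00376).

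TNFRSF10B 209295_at gave 167, 166 and 142 with anti-IgG, against 78.2, 72 and 85 in untreated REC1 cells, without overlap. This 2.02-fold increase (log2 change 1.01 ± 0.12 SE, adjusted p = 1.30e-07) was just past the fold limit, and without anti-IgG replicate 1 or 2 or control replicate 2 it fell short of it, at log2 changes of 0.97, 0.97 and 0.95. With anti-IgM and with its fragment the same probe set was 1.92-fold and 1.90-fold higher (adjusted p = 3.62e-07 and 3.60e-07), just under the limit. Measured against isotype-treated REC1 cells, the log2 change with anti-IgG was 0.67 for TNFRSF10B 209295_at and 0.71 for TNFRSF10A 231775_at, and neither was called. The calls of TNFRSF10A 241371_at were lost in the same way, at 0.79 with anti-IgM and 0.84 with its fragment. With 16 added to each signal, the log2 changes with anti-IgG were 0.88 for TNFRSF10B and 0.99 for TNFRSF10A 231775_at, both under the fold limit.

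FADD, the adaptor that links receptors to caspases, was the member with the least movement in REC1. FADD 202535_at averaged 618 ± 26.1 with anti-IgM, 603 ± 36.2 with the fragment and 671 ± 110 with anti-IgG, against 580 ± 18.1 in untreated cells (SD, n = 3), and no antibody comparison in REC1 reached an adjusted p below 0.05. For FAS in REC1 the signals were below the limit for testing, so they are given as a description. FAS 204780_s_at ranged from 13.9 to 28.5 with anti-IgM, from 19.9 to 31.6 with its fragment and from 19.1 to 28.3 with anti-IgG, against 60.5 to 61.4 in untreated REC1 cells and 55 to 61.4 with the isotype antibody. These 9 arrays all lay below the untreated ones.

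CASP8, the initiator caspase recruited by FADD, fell with the 3 antibodies against the antigen receptor. CASP8 213373_s_at gave 114, 70.3 and 118 with anti-IgM, 86.5, 78.6 and 107 with the fragment and 112, 132.95 and 119 with anti-IgG, against 333, 308 and 310 in untreated REC1 cells. No treated array came close to the untreated range. The decreases were 3.23-fold, 3.53-fold and 2.62-fold (limma adjusted p = 3.42e-09, 8.36e-10 and 9.47e-08). With LT20, rituximab and its fragment the signal was 1.88-fold, 1.69-fold and 1.85-fold lower (adjusted p = 6.29e-05, 0.00102 and 0.000112), which passed the test but not the fold limit. The 2 other CASP8 probe sets had group means of at most 40.4 and were not tested.

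CFLAR, CASP10 and CASP8 lie next to each other in this order on chromosome 2, and the first and the last of them moved in opposite directions in REC1. CFLAR 209939_x_at gave 718, 704 and 586 with anti-IgM, 668, 719 and 718 with the fragment and 761, 706 and 658 with LT20, against 227, 287 and 252 in untreated REC1 cells. The 9 treated arrays were all at least as high as 586, far above the untreated ones. The increases were 2.62-fold, 2.76-fold and 2.78-fold (limma adjusted p = 2.61e-10, 9.28e-11 and 2.59e-10). The second tested probe set, 210563_x_at, rose 2.46-fold, 2.74-fold and 2.62-fold in the same comparisons, whereas the third, 211316_x_at, was called in none. That probe set was tested only because its mean of 102 with LT20 in REC1 passed the signal limit, which no other group did. Its 1.39-fold increase with LT20 is therefore a description. It had log2 changes of 0 with anti-IgM, 0.14 with the fragment and -0.35 with anti-IgG (limma adjusted p = 0.996, 0.441 and 0.0532). At these dim signals, with means of 73.2, 81.3 and 57.9, it did not move with the other tested CFLAR probe sets. With anti-IgG CFLAR 209939_x_at was 1.92-fold higher (462, 493 and 508, adjusted p = 1.91e-07), and with rituximab and its fragment 1.37-fold and 1.56-fold higher (adjusted p = 0.00411 and 9.18e-05).

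The 2 anti-CD20 antibodies could be set against each other directly in REC1, a comparison added after the values had been seen. CFLAR 209939_x_at averaged 709 ± 51.5 with LT20 and 349 ± 17.7 with rituximab (SD, n = 3), a 2.03-fold difference (limma adjusted p = 3.50e-06). It was the only call among the 12 member probe sets, where 0.235% of all probe sets were called, and the second CFLAR probe set differed 1.87-fold (adjusted p = 8.42e-05). For APAF1 the same difference was -0.53 on the log2 scale (95% interval -1.06 to 0, adjusted p = 0.21). The rituximab fragment and whole rituximab gave no call in any member or any other probe set (0%), with a log2 difference for CFLAR 209939_x_at of 0.19 (95% interval -0.04 to 0.42). The anti-IgM fragment and whole anti-IgM gave no member call (0.128% of all probe sets), and nor did anti-IgG and anti-IgM (0.121%), although CFLAR 209939_x_at was 1.37-fold lower with anti-IgG than with anti-IgM (adjusted p = 0.0346).

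APAF1, the scaffold of the apoptosome, showed the largest change of the 9 genes and was called in all 6 antibody comparisons of REC1 other than that of the isotype antibody. APAF1 204859_s_at gave 15.8, 17.3 and 16.9 with anti-IgM, 23.2, 8.39 and 16.2 with its fragment and 13.1, 13.8 and 21 with anti-IgG, against 145, 128 and 142 in untreated REC1 cells. With LT20 it gave 41, 39 and 32.3, with rituximab 59.7, 48.4 and 53.7 and with the rituximab fragment 39.3, 38.6 and 31.5. The treated arrays formed separate ranges, lowest with the antibodies against the antigen receptor and intermediate with those against CD20, and none overlapped the untreated arrays.

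The decreases of APAF1 were 8.29-fold, 9.42-fold and 8.86-fold with anti-IgM, its fragment and anti-IgG (limma adjusted p = 6.29e-10, 1.95e-10 and 4.18e-10), and 3.71-fold, 2.57-fold and 3.81-fold with LT20, rituximab and its fragment (adjusted p = 2.72e-06, 0.000369 and 3.46e-06). Signals near 16 are close to the background of the array and were deposited without detection calls, so the size of the largest folds is approximate. The isotype antibody also went with a lower APAF1 signal, 84.1, 70 and 60.4, or 1.95-fold below untreated cells (adjusted p = 0.0148), which missed the fold limit. Set against these isotype-treated arrays, the log2 change of APAF1 was -2.09 with anti-IgM, -2.27 with its fragment and -2.18 with anti-IgG, but -0.93 with LT20, -0.40 with rituximab and -0.97 with its fragment. None of the 6 was then called, since the isotype mean of 71.5 and the treated means lie under the signal limit of 100. The changes with LT20, rituximab and its fragment were also short of the fold limit.

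**Figure D2:**
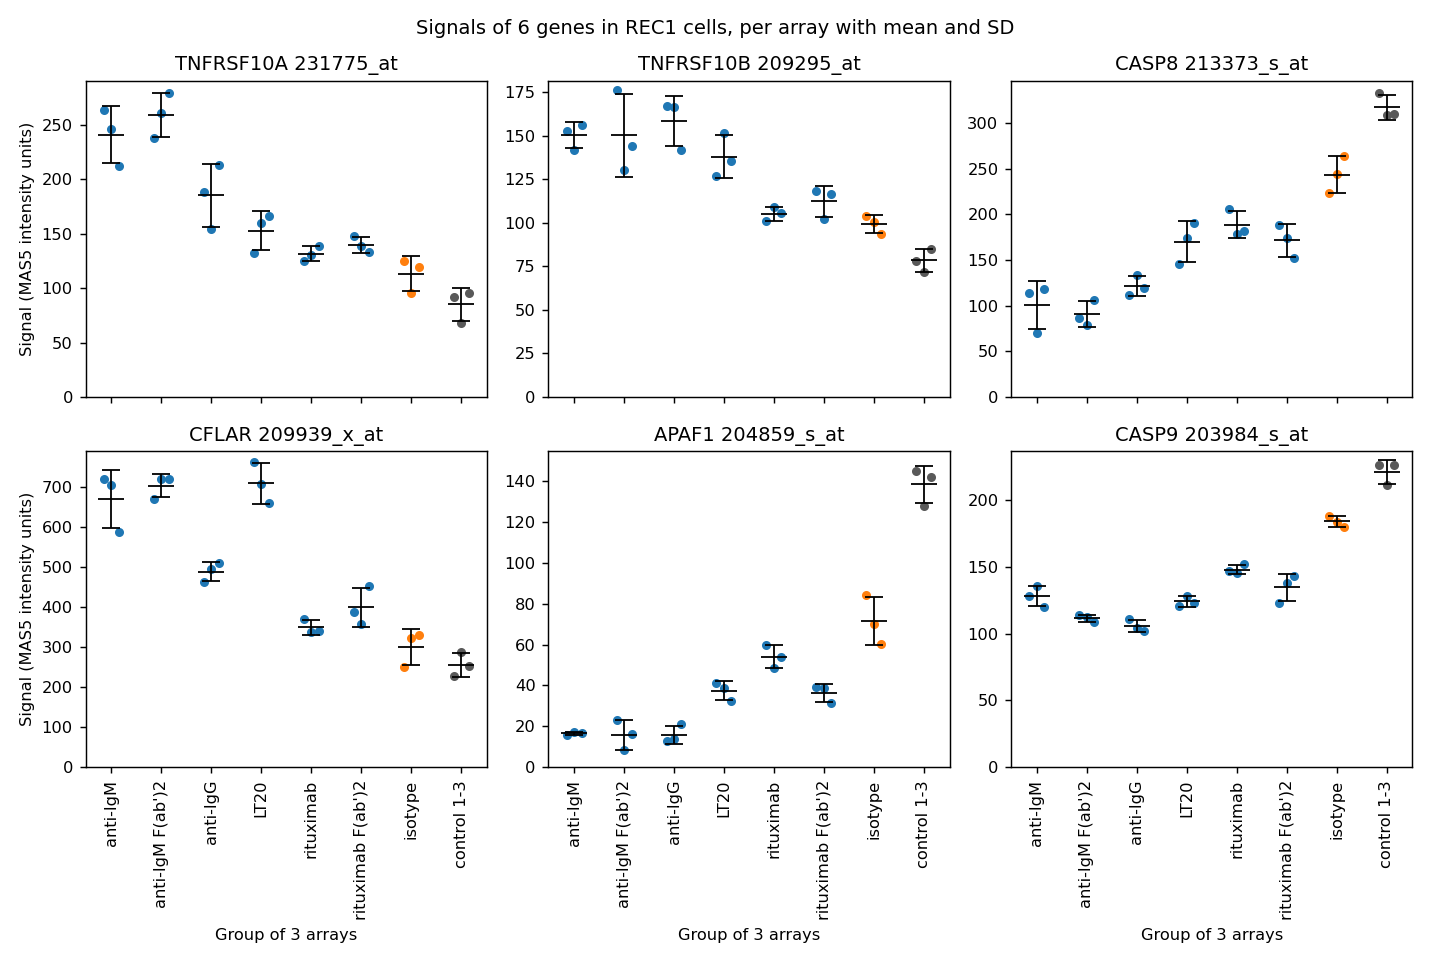
Signal (linear MAS5 intensity units) on each REC1 array (points) with mean and SD (bars) for 6 genes, by group of 3 arrays, with antibody-treated groups in blue, the isotype antibody in orange and untreated cells in grey at the right. APAF1 means lie between 15.9 and 53.9 with the 6 antibodies against 138.25 in untreated cells, and CFLAR means between 349 and 709 against 255.

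CASP9, the caspase that the apoptosome activates, moved in the same direction as APAF1 in REC1 and in the opposite direction in Z138. In REC1, CASP9 203984_s_at gave 111, 104 and 102 with anti-IgG, against 226, 211 and 226 in untreated cells, a 2.09-fold decrease without overlap (limma adjusted p = 4.38e-10). With the anti-IgM fragment and with anti-IgM it was 1.98-fold and 1.73-fold lower (adjusted p = 1.25e-09 and 5.65e-08), just short of the limit or below it. The second tested probe set of CASP9, 210775_x_at, was 1.47-fold lower with anti-IgG (adjusted p = 0.000872) and was not called in REC1. Measured against isotype-treated cells, the log2 change of 203984_s_at with anti-IgG was -0.80 and no longer called, with 16 added to each signal it was -0.96, also under the limit, and the isotype antibody itself was 1.2-fold below untreated cells (adjusted p = 0.049).

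In REC1 the T cell marker list moved with these results. The summed signal of its 6 genes was 1547 to 1619 in untreated cells. It was 676 to 825 with anti-IgM, 737 to 837 with its fragment, 826 to 852 with anti-IgG and 988 to 1173 with LT20. With rituximab it was 1409 to 1453, with the rituximab fragment 1420 to 1455 and with the isotype antibody 1423 to 1479. Most of the sum is CD3D, which averaged 1350 in untreated REC1 cells, while CD3G averaged 125, CD3E 62.2, CD2 20.3, CD8A 11.3 and TRAT1 1.7. The 6 B cell markers summed to 8342 to 9305 with anti-IgM, 7527 to 7638 with the fragment and 8743 to 10093 with anti-IgG, against 11667 to 12534 in untreated cells. With LT20 this sum was 10407 to 10617, with rituximab 11107 to 12275, with its fragment 10664 to 11282 and with the isotype antibody 11893 to 13098. The part of these shifts in the changes of the 9 genes was not tested.

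In Z138, the other mantle cell line, the calls concerned CASP9 and APAF1. With anti-IgG 3 of 9 tested member probe sets were called, where 5.18% of all probe sets were, and with the anti-IgM fragment 1 (4.31%). Anti-IgM gave 0 (2.72%), rituximab 0 (0.0942%), LT20 0 (0.116%) and the isotype antibody 0 (0% of all probe sets). Marker sums moved in the same comparisons. With the fragment the T cell sum was 59 to 96 and the B cell sum 4942 to 5410, against 134 to 144 and 6022 to 6427 on control arrays 1 to 3. The T cell sum of control arrays 4 to 6, 79 to 101, overlapped that of the fragment. With anti-IgG the T and B cell sums were 64 to 73 and 6004 to 6299, against 79 to 101 and 6601 to 6934 on control arrays 4 to 6. The sum of BCL6 and MME was 142 to 161 with anti-IgG, against 58 to 77. CCND1 and SOX11 summed to 3291 to 3417 with the fragment, against 3852 to 3913, and to 3209 to 3293 with anti-IgG, against 3690 to 3797. Their part in the calls was not tested.

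CASP9 203984_s_at gave 350, 329 and 342 in Z138 with anti-IgG, against 132, 118 and 150 on control arrays 4 to 6. With the anti-IgM fragment it gave 307, 354 and 322, and with whole anti-IgM 221, 274 and 264, against 156, 150 and 178 on control arrays 1 to 3. All 9 treated arrays exceeded all 6 untreated ones. The increases were 2.57-fold with anti-IgG and 2.04-fold with the fragment (limma adjusted p = 6.08e-11 and 7.84e-09), and 1.57-fold with whole anti-IgM (adjusted p = 1.07e-05). The fragment stood 1.30-fold above whole anti-IgM (adjusted p = 0.0176), a difference short of the fold limit, in a comparison added after the values had been seen in which 0.0435% of all probe sets and no member were called.

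The second CASP9 probe set, 210775_x_at, gave 158, 177 and 158 with anti-IgG, against 86.2, 94.1 and 63.9 on control arrays 4 to 6 of Z138, and rose 2.04-fold (limma adjusted p = 1.90e-07). The fragment increased it 1.81-fold and whole anti-IgM 1.37-fold (adjusted p = 2.86e-06 and 0.00373). The call of 203984_s_at with the fragment lay close to the limit. Without fragment replicate 2 or control replicate 2 the log2 change was 0.97 or 0.98, under 2-fold. That of 210775_x_at with anti-IgG was 0.98 without anti-IgG replicate 2 and 0.87 without control replicate 6.

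APAF1 204859_s_at in Z138 gave 54.9, 44.5 and 65 with anti-IgG, against 113, 122 and 103 on control arrays 4 to 6, a 2.08-fold decrease without overlap (limma adjusted p = 9.12e-06). The other control triplicate was lower, at 82.4, 65.4 and 78.9, and against it the log2 change with anti-IgG was -0.47 and not called. It was -0.91 without anti-IgG replicate 2 and -1, at the limit, without control replicate 5. Of 16 alternatives run on this call, 10 kept it and 6 did not, and the weakest log2 change was -0.32. APAF1 was 1.41-fold lower with the anti-IgM fragment (adjusted p = 0.0138). CFLAR 209939_x_at was 1.56-fold higher with anti-IgG, 1.51-fold with anti-IgM and 1.28-fold with its fragment (adjusted p = 0.000322, 0.000904 and 0.0295), and FADD was 1.46-fold, 1.23-fold and 1.26-fold higher (adjusted p = 4.59e-06, 0.00346 and 0.00118), all under the fold limit. CASP8 was 1.23-fold lower with anti-IgG (adjusted p = 0.0293), with overlap between the groups. TNFRSF10A 231775_at averaged 124 with anti-IgG, which lies above the 109 of control arrays 4 to 6 and below the 171 of control arrays 1 to 3, so its direction depends on the triplicate.

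**Figure D3:**
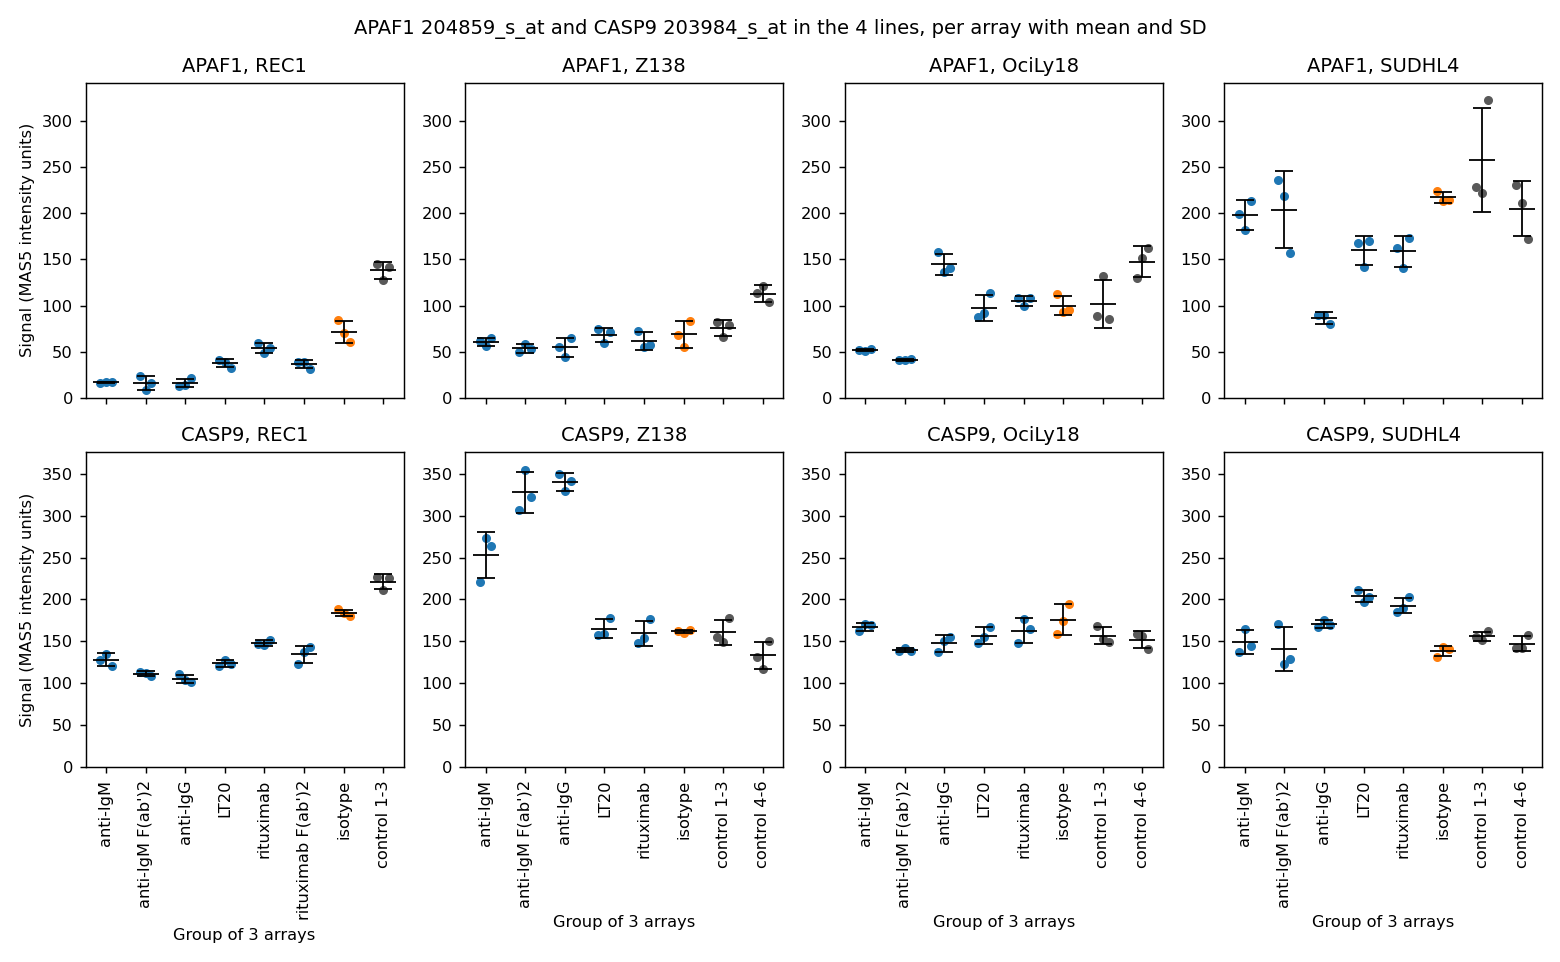
Signal (linear MAS5 intensity units) of APAF1 (top) and CASP9 (bottom) on each array (points) with mean and SD (bars), in panels for the 4 lines, with treated groups in blue, the isotype antibody in orange and the untreated triplicates in grey at the right. CASP9 with anti-IgG averages 106 in REC1, below the untreated 221, and 340 in Z138, above the untreated 133.23.

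In OciLy18, a single call was made, APAF1 with the anti-IgM fragment, 1 of 9 member probe sets tested where 3.96% of all probe sets were called. APAF1 204859_s_at gave 40.6, 40.9 and 42.2 with the fragment and 51.4, 50.6 and 53.3 with whole anti-IgM, against 88.9, 132 and 84.9 on control arrays 1 to 3. All 6 treated arrays lay below the untreated ones. The decreases were 2.42-fold and 1.93-fold (limma adjusted p = 5.92e-08 and 5.30e-06). Without control replicate 2, the array of 132, the untreated mean falls under the signal limit, and the log2 change of -1.08 was not called. With anti-IgG, APAF1 gave 158, 137 and 140, against 130, 151 and 162 on control arrays 4 to 6, with overlap. On control arrays 1 to 3 the sum of BCL6 and MME was 2190 to 2397. It was 1543 to 1723 with the fragment and 1585 to 1654 with whole anti-IgM. With the fragment the B cell sum was 13251 to 13679, against 11481 to 11630. The T cell sum, 77 to 83, was above the 46 to 57 of control arrays 1 to 3 but within the 61 to 93 of control arrays 4 to 6. The part of these sums in the call of APAF1 was not tested.

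The receptors were higher in OciLy18 with anti-IgM and its fragment without reaching the fold limit. TNFRSF10B 209295_at gave 542, 519 and 585 with anti-IgM and 488, 538 and 470 with the fragment, against 330, 312 and 336 in untreated cells, 1.68-fold and 1.53-fold higher (adjusted p = 1.32e-08 and 2.85e-07). TNFRSF10A 231775_at was 1.73-fold and 1.57-fold higher (adjusted p = 6.51e-06 and 7.24e-05), and again no array overlapped with control arrays 1 to 3. Control arrays 4 to 6, which are not the reference here, averaged 425 for TNFRSF10B and 164 for TNFRSF10A, above the 326 and 136 of control arrays 1 to 3. CFLAR was not tested in OciLy18, where 209939_x_at averaged 78.2 in untreated cells. Anti-IgM gave 0 member calls (3.49% of all probe sets), anti-IgG 0 (1.29%), LT20 0 (0.0573%), and rituximab and the isotype antibody 0 (0% each). The fragment against whole anti-IgM gave 0 member calls (0.0286%), with a log2 difference for APAF1 of -0.33 (95% interval -0.62 to -0.04, adjusted p = 0.166).

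SUDHL4 is known to carry IgG in place of IgM in its antigen receptor, and its 2 member calls came with anti-IgG, 2 of 13 member probe sets beside 7.51% of all probe sets. APAF1 204859_s_at gave 89.7, 90.2 and 79.6 with anti-IgG, against 231, 212 and 173 on control arrays 4 to 6. The groups did not overlap, and the decrease was 2.36-fold (limma adjusted p = 7.90e-08). BCL6 and MME summed to 2634 to 2850 with anti-IgG, against 3389 to 3581 on these control arrays, and the part of this shift was not tested. With rituximab and with LT20 APAF1 was 1.60-fold and 1.59-fold lower than on control arrays 1 to 3 (adjusted p = 0.00035 and 0.000355). With anti-IgM, 200, 182 and 214, and its fragment, 237, 219 and 157, the signals stood beside 228, 222 and 323 on these control arrays, and neither comparison passed the test (log2 changes -0.36 and -0.34).

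TNFRSF10B 210405_x_at gave 89.7, 119 and 114 in SUDHL4 with anti-IgG, against 44.7, 54.3 and 49.3 on control arrays 4 to 6, a 2.16-fold increase (limma adjusted p = 5.14e-06). This probe set was tested only because its mean of 107 with anti-IgG in SUDHL4 passed the signal limit, which no other group did. The main probe set of the gene, 209295_at, gave 807, 783 and 730, against 522, 515 and 509, and rose less, 1.5-fold (adjusted p = 4.29e-08). Both showed every treated array above every untreated one. With rituximab 209294_x_at of the same gene was 2.15-fold higher (adjusted p = 9.93e-07), with a mean of 66.6 that kept it under the signal limit. The untreated triplicates themselves differed at this probe set, with 56.3 on control arrays 4 to 6 and 31.2 on control arrays 1 to 3, the reference for rituximab (1.81-fold, adjusted p = 4.88e-05). At 209295_at they averaged 515 and 402 (adjusted p = 9.27e-05). CFLAR 209939_x_at was 1.69-fold higher with rituximab and 1.78-fold with LT20 (adjusted p = 0.000623 and 0.000211), and 1.5-fold with anti-IgG, where the groups overlapped (adjusted p = 0.00512). With anti-IgG CFLAR 209939_x_at averaged 146, against 99.1 on control arrays 4 to 6 but 140 on control arrays 1 to 3. CASP9 203984_s_at was 1.31-fold higher with LT20 and 1.23-fold with rituximab (adjusted p = 0.00228 and 0.0149). No member was called with rituximab (5.29% of all probe sets), LT20 (6.03%), anti-IgM (0.0306%), its fragment (0.36%) or the isotype antibody (0%). The largest member change with the fragment that passed the test was FADD, 1.27-fold higher (adjusted p = 0.0098).

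The difference of the responses between the 4 lines was tested directly, with all 96 arrays in 1 limma fit. Of 14 member probe sets, 11 differed between lines in their response to anti-IgM (21.7% of all probe sets), 10 to the fragment (23.1%), 6 to anti-IgG (22.1%), 5 to LT20 (16.7%), 2 to rituximab (10.3%) and 0 to the isotype antibody (1.21%). This test set no signal limit for the single treatments. TNFRSF10B 210405_x_at and 209294_x_at, with means above 100 only in SUDHL4 with anti-IgG, are among the anti-IgM calls. The former is also among the calls with the fragment and with rituximab, so these counts rest partly on dim signals. The widest spread belonged to APAF1 with anti-IgG, with log2 changes of -3.15 in REC1, -1.06 in Z138, -0.02 in OciLy18 and -1.24 in SUDHL4 (adjusted p = 1.21e-15). CASP9 203984_s_at with anti-IgG had log2 changes of -1.07 in REC1, 1.36 in Z138, -0.04 in OciLy18 and 0.21 in SUDHL4 (adjusted p = 2.72e-26). CASP8 with anti-IgM had -1.69 in REC1 and values from -0.21 to 0.03 in the other lines (adjusted p = 2.86e-15). CFLAR 209939_x_at with LT20 had 1.48 in REC1, 0.24 in Z138, -0.55 in OciLy18 and 0.83 in SUDHL4 (adjusted p = 9.53e-12).

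Untreated cells of the lines differed in some members, as they did in 15.5% to 26.4% of all probe sets tested. REC1 had the least TNFRSF10B and the most FADD of the 4 lines. TNFRSF10B 209295_at had values of 72, 78.2 and 85 in REC1, 236 to 284 (median 261) in Z138, 312 to 459 (median 370) in OciLy18 and 391 to 522 (median 463) in SUDHL4, and the ranges of OciLy18 and SUDHL4 overlapped. REC1 was 3.36-fold below Z138, 4.75-fold below OciLy18 and 5.82-fold below SUDHL4 (limma adjusted p = 2.28e-11, 3.12e-13 and 2.61e-14). FADD had values of 566, 574 and 601 in REC1, 254 to 305 in Z138, 207 to 275 in OciLy18 and 234 to 273 in SUDHL4, where the last 3 ranges overlapped. REC1 exceeded them 2.12-fold, 2.60-fold and 2.23-fold (adjusted p = 2.57e-10, 4.65e-12 and 7.62e-11).

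CFLAR 209939_x_at averaged 255 ± 30 in untreated REC1, 206 ± 34.3 in Z138, 120 ± 31.1 in SUDHL4 and 78.2 ± 8.88 in OciLy18 (SD, n = 3 in REC1 and 6 in the others). REC1 exceeded SUDHL4 2.19-fold and OciLy18 3.27-fold, and Z138 exceeded OciLy18 2.62-fold (limma adjusted p = 1.42e-05, 4.38e-08 and 5.28e-08), while REC1 and Z138 overlapped. TNFRSF10A 231775_at was 3.05-fold lower in REC1 than in SUDHL4 (85.2 ± 15.1 against 259 ± 33.5, adjusted p = 3.10e-08). APAF1 was 2.47-fold lower in Z138 than in SUDHL4 (94.2 ± 22 against 231 ± 49.5, adjusted p = 6.73e-07). CASP8 and CASP9 were called between no pair of lines, CASP9 203984_s_at being 1.43-fold to 1.51-fold higher in REC1 than in the other lines. In all, 18 calls were made over the 6 pairs with 11 member probe sets tested, 2 for REC1 against Z138 (24.6% of all probe sets called), 7 for REC1 against SUDHL4 (26.4%), 4 for REC1 against OciLy18 (24.4%), 3 for Z138 against SUDHL4 (21.6%), 2 for Z138 against OciLy18 (15.5%) and 0 for SUDHL4 against OciLy18 (19.5%).

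**Figure D4:**
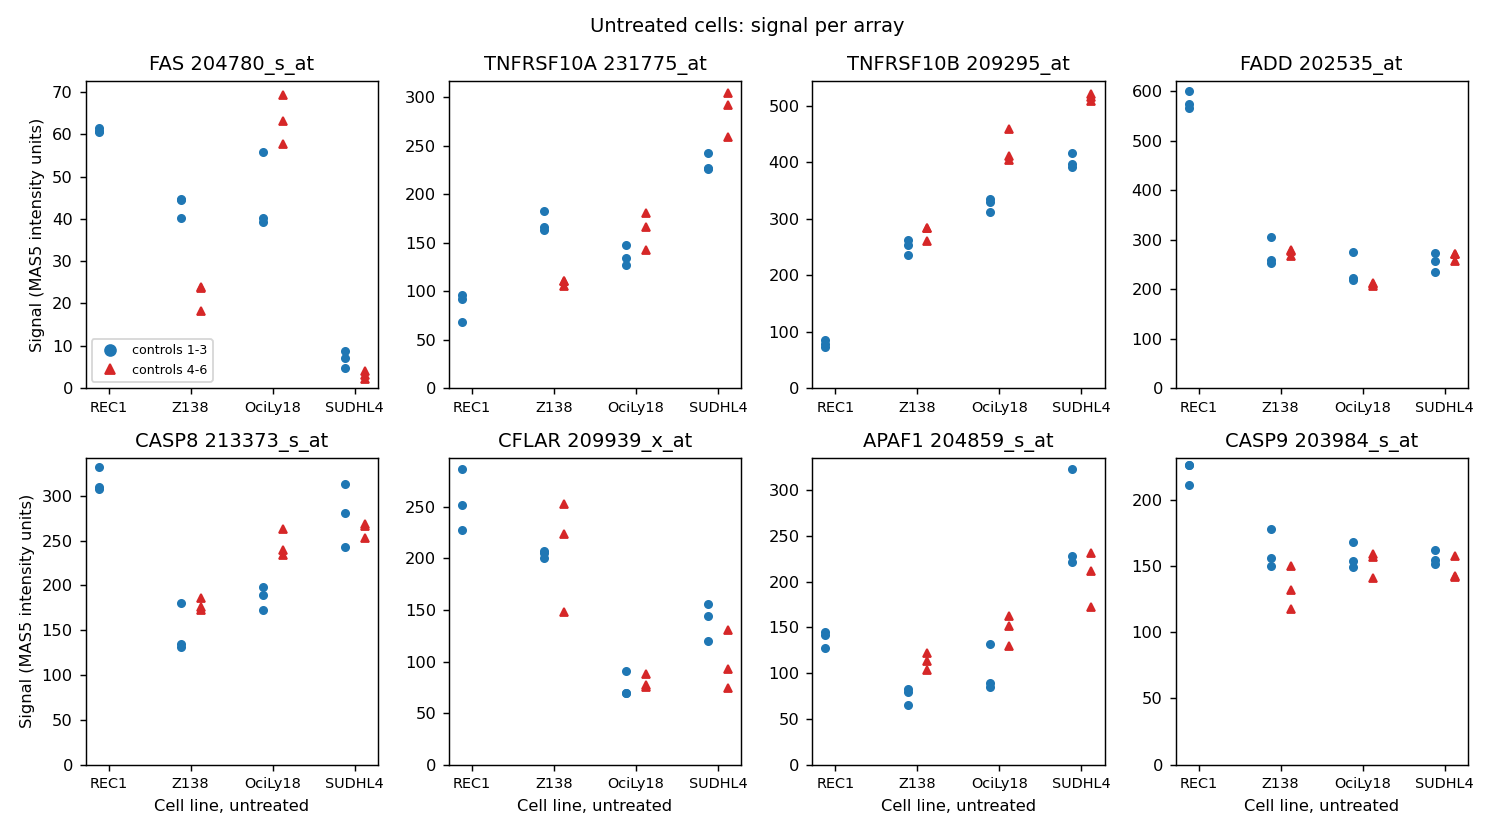
Signal (linear MAS5 intensity units) of the main probe set of 8 genes on each untreated array, by cell line, with control arrays 1 to 3 as blue circles and control arrays 4 to 6 as red triangles. REC1 stands below the other lines in TNFRSF10B (72 to 85) and above them in FADD (566 to 601), and FAS stays below 100 in every line.

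Promoters are shown for APAF1, the member with the largest decrease, CFLAR, which rose with antibodies to both targets in REC1, and CASP9, which moved in opposite directions in REC1 and Z138. RefSeq promoters of GRCh38.p14 were matched for 6 of the 9 genes, and the 250 bases before a start of transcription are printed 5′ to 3′ on the strand of the gene. For CFLAR and CASP9, which have several starts, the window farthest upstream is given. In CFLAR the capitals mark a match to the NF-kB consensus, and in APAF1 and CASP9 they mark GGGCGG, the GC box bound by Sp1. Both strands were searched, and adjacent or overlapping matches run together.
APAF1, chr12:98645040-98645289 (+ strand): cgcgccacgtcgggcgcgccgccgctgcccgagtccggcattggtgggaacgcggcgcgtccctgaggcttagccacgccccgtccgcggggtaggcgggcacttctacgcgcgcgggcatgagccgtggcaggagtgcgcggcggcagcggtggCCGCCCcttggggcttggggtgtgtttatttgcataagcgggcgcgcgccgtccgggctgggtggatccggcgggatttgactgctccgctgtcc
CFLAR, chr2:201118466-201118715 (+ strand): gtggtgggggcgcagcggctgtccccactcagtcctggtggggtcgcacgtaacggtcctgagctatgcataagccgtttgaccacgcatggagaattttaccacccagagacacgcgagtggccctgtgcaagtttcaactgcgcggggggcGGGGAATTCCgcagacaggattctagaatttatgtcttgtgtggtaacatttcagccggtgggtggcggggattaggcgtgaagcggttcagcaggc
CASP9, chr1:15524791-15525040 (- strand): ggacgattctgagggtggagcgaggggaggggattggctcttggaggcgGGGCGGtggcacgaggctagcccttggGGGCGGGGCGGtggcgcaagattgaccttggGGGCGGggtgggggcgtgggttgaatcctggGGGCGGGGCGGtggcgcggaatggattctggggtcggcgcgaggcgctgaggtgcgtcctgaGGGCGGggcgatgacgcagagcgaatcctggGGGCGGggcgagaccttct
The APAF1 window is 73.6% G and C and the CASP9 window 71.6%, beside a median of 58% over 35116 promoter windows. The CASP9 window holds 8 GGGCGG matches and the APAF1 window 1, and 42.6% of all windows hold at least 1. The CFLAR window holds 1 NF-kB consensus match, 97 bases before the start and overlapping a GGGCGG match, while the windows of the 3 other CFLAR starts hold none, and 5.21% of all windows hold one. Neither the APAF1 nor the CASP9 window holds the NF-kB consensus, TGANTCA of AP-1 (6.57% of windows), GTAAACA of FOXO (2.98%) or TTTNNCGC of E2F (5.92%). A match in these letters is a description of the window only.

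Beyond the 9 genes, 58 of 67 listed genes of the same pathway had a probe set of a single symbol, and 39 were tested in at least 1 line. In REC1, 36 of them were tested, and anti-IgM raised 4 and lowered 4, where 5.75% of 7841 genes tested were called higher and 9.03% lower. Its fragment raised 4 and lowered 8 (7.74% higher and 9.71% lower over all genes), and anti-IgG raised 4 and lowered 5 (4.62% and 8.21%). Over all 25 antibody comparisons 5 of the 39 were called higher and 12 lower at least once, beside 13.2% and 16.8% of 9118 genes tested in any line. Both tested ligands rose in REC1. LTA, the lymphotoxin alpha ligand, averaged 331 with the anti-IgM fragment against 26.5 in untreated cells, 13-fold higher (limma adjusted p = 1.32e-14), and TNF had a log2 change of 1.84 (adjusted p = 1.22e-16). Both also rose with the isotype antibody in REC1, with log2 changes of 2.48 and 1.09 (adjusted p = 2.78e-10 and 2.70e-11). TNF rose in OciLy18 too, where it averaged 207 with anti-IgM against 7.46, a fold that depends on the floor because the untreated signal is near background.

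Among 14 tested adaptors and regulators PEA15, a protein with a death effector domain that binds FADD and caspase-8, rose 3.81-fold in OciLy18 with the fragment, and TRADD, the adaptor of TNF receptor 1, was 2.63-fold lower in REC1 with the fragment. FAIM, an inhibitor of FAS-induced death, was 2.51-fold lower with anti-IgG in REC1, and DEDD2, another death effector domain protein, 2.11-fold lower with the fragment (limma adjusted p = 1.91e-13, 3.87e-07, 3.26e-12 and 5.84e-11 for the 4 genes). Of 8 tested caspases and relatives, 4 fell in some comparison and none rose, beside 16.8% of all genes called lower and 13.2% called higher at least once. CASP1, CASP4 and CARD16, of the inflammatory caspase branch, fell in REC1, CASP1 being 3.34-fold lower with anti-IgM, and CASP6, an executioner, was 2.69-fold lower in Z138 with anti-IgG (adjusted p = 5.18e-10 and 6.20e-09). None of 5 tested IAP proteins and antagonists was called, where 28.9% of all genes were called in at least 1 comparison.

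Of 8 tested apoptosome and mitochondrial genes, BCL2L11, the BH3-only protein BIM, rose 3.67-fold in SUDHL4 with rituximab, and was also called with anti-IgG and LT20 in SUDHL4 and with LT20 in REC1. CYCS, encoding cytochrome c, was 2.09-fold lower in SUDHL4 with LT20, BID 2.18-fold lower in Z138 with the fragment, and ENDOG and BAX 2.29-fold and 2.01-fold lower in REC1 with the fragment (limma adjusted p = 1.79e-13 for BCL2L11, 2.66e-07 for CYCS, 5.40e-10 for BID, 3.31e-06 for ENDOG and 0.000175 for BAX). TNFRSF21, death receptor 6, went both ways, 2.84-fold higher in REC1 with the fragment (adjusted p = 2.50e-08) and with a log2 change of -1.15 in Z138 with anti-IgG (adjusted p = 7.40e-06).

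The genes whose pattern over the 96 arrays was most like that of a member, after subtraction of each line's mean from log2 signals, are given as a description, since the arrays share lines, treatments and controls. Among 9090 genes, APAF1 was closest to PRR11, MOB1A and SNX10 (Pearson r = 0.917, 0.911 and 0.902). CASP8 was closest to IFT80 (0.845), TNFRSF10B 209295_at to M6PR (0.853), TNFRSF10A 231775_at to TUBB6 (0.808), CFLAR 209939_x_at to NDFIP2 (0.785) and CASP9 203984_s_at to HDAC9 (0.735).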

How the data were processed

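Signals of 96 HG-U133 Plus 2.0 arrays were used, 4 lines in 32 groups of 3 arrays. The deposited values are linear intensities for each probe set, produced by the authors in GCOS (methods) with the MAS5 algorithm (submitters' processing notes). No scaling target or software version is given in the sources used here. The second deposited file, holding the authors' triplicate means and change factors, was not used. Probe sets were named through the platform annotation, where 41097 carry 1 symbol, 1801 several and 11777 none.

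A floor of 1 was applied before the log2 transformation. A model per line, of 24 arrays in 8 groups, was fitted with limma 3.58.1 (eBayes with trend, R 4.3.3, data.table version 1.17.8). It covered probe sets whose mean exceeded 100 in at least 1 group, which were 14068 for REC1, 13799 for Z138, 13969 for OciLy18 and 13069 for SUDHL4. P-values were adjusted by Benjamini and Hochberg over all of these. Untreated lines were compared on 21 control arrays. Responses between lines were compared on all 96, and a difference was called at an adjusted p below 0.05 and a range of the 4 log2 changes above 1. Folds come from the fitted log2 changes. The main probe set of a gene has the highest mean over the 96 arrays. Figures were drawn with python 3.11.15 and matplotlib 3.10.9.

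The 9 members and all gene lists were chosen with earlier results of these data known. Named were all members, with every array for probe sets called in an antibody comparison, and of the other pathway genes up to 5 called genes per list with the largest change. Direct comparisons of 2 antibodies were added after the values had been seen. The fit was tested on simulated data. Alternatives were 16 added to each signal, quantile normalization, median centring, no filter or a filter on every array, no variance trend, other reference arrays, a replicate block, the limits without a test, and leaving out each array. The number of arrays limits the precision.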

Additional observations from a re-analysis of the deposited data

Results flagged for a closer look

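A single untreated array stood apart from its group. FADD read 275.3 on control replicate 2 of OciLy18, while the lowest of the 6 untreated arrays read 206.67, and the gap to the next array was 0.753 of the whole range. Chance flags about 1 in 20 groups in this way, and this was the 1 flagged among 22 groups of untreated arrays checked.

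The remaining results were singled out because the response of a gene to 1 antibody differed between the 4 lines, by a limma F test over all 96 arrays, and they are given as the range of the 4 log2 changes. With anti-IgM the range was 1.52 for TNFRSF10A, 1.72 for CASP8, 1.54 for CFLAR, 2.74 for APAF1 and 1.44 for CASP9. With the anti-IgM fragment it was 1.6 for TNFRSF10A, 1.73 for CASP8, 1.63 for CFLAR, 2.9 for APAF1 and 2.01 for CASP9. With anti-IgG it was 1.01 for TNFRSF10B, 1.61 for CASP8, 3.13 for APAF1 and 2.43 for CASP9. LT20 gave 2.03 for CFLAR, 1.85 for APAF1 and 1.22 for CASP9, and rituximab 1.43 for APAF1. In CFLAR the OciLy18 signals lay under 100, so that the ranges of this gene rest partly on dim signals.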

How the results depend on the processing

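None of the 30 called changes reversed its direction under the alternatives run on it, of which the other control triplicate and all 6 controls applied to 7. Changes that were not called were not followed. The count of member probe sets called in REC1 was 23, and became 44 with no filter on dim probe sets and 12 with the isotype arrays as reference, over 6 comparisons, and 22 to 24 when 1 array was left out. With 16 added to each signal, 7 of the 30 calls were lost, 3 of them in REC1 with anti-IgG (TNFRSF10A 0.99, TNFRSF10B 0.88 and CASP9 -0.96 on the log2 scale). In SUDHL4 the treatments set against control arrays 1 to 3 gave 0 calls, and 2 with no filter, with the other control triplicate or with all 6 controls, while anti-IgG gave 2 calls, and 1 with 16 added to each signal, 1 with the filter on every array and 5 against the isotype arrays. In OciLy18 the 1 call became 5 with no filter, 2 with the other triplicate, 2 with all 6 controls and 0 against the isotype arrays, and 0 to 2 when 1 array was left out, being 0 without control replicate 2 and 2 without control replicate 1 or 3. Anti-IgG in OciLy18 gave 0 calls, and 1 with no filter. In Z138 the 1 call against control arrays 1 to 3 became 0 with 16 added, with quantile normalization or with median centring, 2 with the other triplicate, and 0 to 1 when 1 array was left out, being 0 without control replicate 2 or fragment replicate 2. The 3 calls with anti-IgG in Z138 became 1 with 16 added, and 1 to 3 when 1 array was left out, being 1 without anti-IgG replicate 2. Between untreated lines 18 calls became 64 with no filter. Where filters or arrays were removed, the number of features or arrays changed by construction, and otherwise the cause was not tested. No pairing of arrays with the same replicate number was seen, the median correlation of their deviations lying between -0.007 and 0.038 in the lines. Such correlations in groups of 3 arrays cannot exclude that arrays of the same number were handled together. With the number as a replicate block the counts against control arrays 1 to 3 were 23 in REC1, 1 in Z138, 1 in OciLy18 and 0 in SUDHL4, as without it. Signals near background limit the large folds of APAF1, and no detection calls were used.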
